A study of Mus musculus with 10 samples.

Results

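The 10 genes described here mark the endothelial cells that line blood vessels and the blood-brain barrier those cells form. They are Cldn5, Cdh5, Pecam1, Flt1, Tek, Slc2a1, Mfsd2a, Abcb1a, Slco1a4 and Ly6c1. They were chosen by symbol and matched to their mouse Ensembl identifiers among the 22024 genes of the deposited count table, and all 10 were found. The assay was RNA sequencing of polyA RNA taken from lumbar cord at 3 months of age, with 1 library from each of 10 mice, all female. The M337V group (n = 5, animals 1, 2, 3, 7 and 9) carried human TARDBP with the M337V mutation, on a bacterial artificial chromosome exchanged into the Rosa26 locus. In the WT group (n = 2, animals 8 and 10) the construct held unmutated human TARDBP. The NTg group (n = 3, animals 4, 5 and 6) was nontransgenic C57BL/6. No group was stated to have lost mouse Tardbp, so transgenic cords held the human gene beside the mouse gene, and the human gene was not restricted to vessel cells. The transgenic lines were founded from targeted embryonic stem cells and backcrossed to C57BL/6J. The sources used here do not give the number of clones or the zygosity of the animals sequenced.

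The protein made from TARDBP is TDP-43, which binds RNA and is mutated in some families with amyotrophic lateral sclerosis. In the brain and spinal cord, endothelial cells are sealed by tight junctions, carry out little vesicle transport and import glucose, lipids and amino acids through dedicated transporters, while efflux pumps return many drugs to the blood. These properties form the blood-brain barrier and its counterpart in the cord, and they are kept up by signals from pericytes and astrocytes.

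Library totals ran from 18724888 to 19571914 counts in M337V, from 19424118 to 20932246 in WT and from 19948913 to 21041474 in NTg. Levels are given as CPM, on library sizes adjusted by the TMM method. Human TARDBP lay between 114 and 141 CPM in the 7 M337V and WT libraries. NTg 5 held 1 count of it and NTg 6 held 4 counts. The library labelled NTg animal 4 held 2415 counts, or 118 CPM, which goes against that label. It stays under the label here, and results are also given without it. Counts summed over caudal Hox genes, which mark position along the cord, were 240 in WT 8 and 789 in M337V 3, against 2295 to 4584 in the other 8 libraries. The library names number M337V 1 to 3 as 10 to 12, and the other 7 libraries as 2 to 8. The labels do not say what those numbers stand for.

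All 10 genes were read in all 10 libraries, with 218 counts at the least (Cdh5 in M337V 2) and 2917 at the most (Slc2a1), and all 10 passed the filter on low counts. The tissue therefore held endothelial RNA in each library. Summed over the 10 genes, the level was 425 to 567 CPM in M337V, 442 to 501 CPM in WT and 482 to 535 CPM in NTg, and the 3 ranges overlapped. Fewer endothelial cells and less RNA per endothelial cell cannot be told apart in RNA from whole tissue. Levels of different genes were compared per kilobase of merged exon length. On that scale Slc2a1 was the highest, with a mean of 35.3 CPM per kilobase over the 10 libraries, followed by Cldn5 at 22.2, Mfsd2a at 16.9, Ly6c1 at 15.2 and Slco1a4 at 14.1. Abcb1a stood at 8.60 CPM per kilobase, Flt1 at 5.38, Cdh5 at 3.77, Tek at 3.71 and Pecam1 at 3.66. Neighbours in this order overlapped in their ranges over libraries, except that the lowest Slco1a4 value lay above the highest Abcb1a value and the lowest Abcb1a value above the highest Flt1 value. The order depends on the length used. Merged exons came to 13504 bases for Flt1, against 6895 bases in its longest transcript, and to 5480 against 4997 bases for Abcb1a. An order by transcript length was not computed. Within a gene, the highest library held between 1.31 times (Slco1a4) and 1.78 times (Cdh5) the CPM of the lowest.

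**Figure D1:**
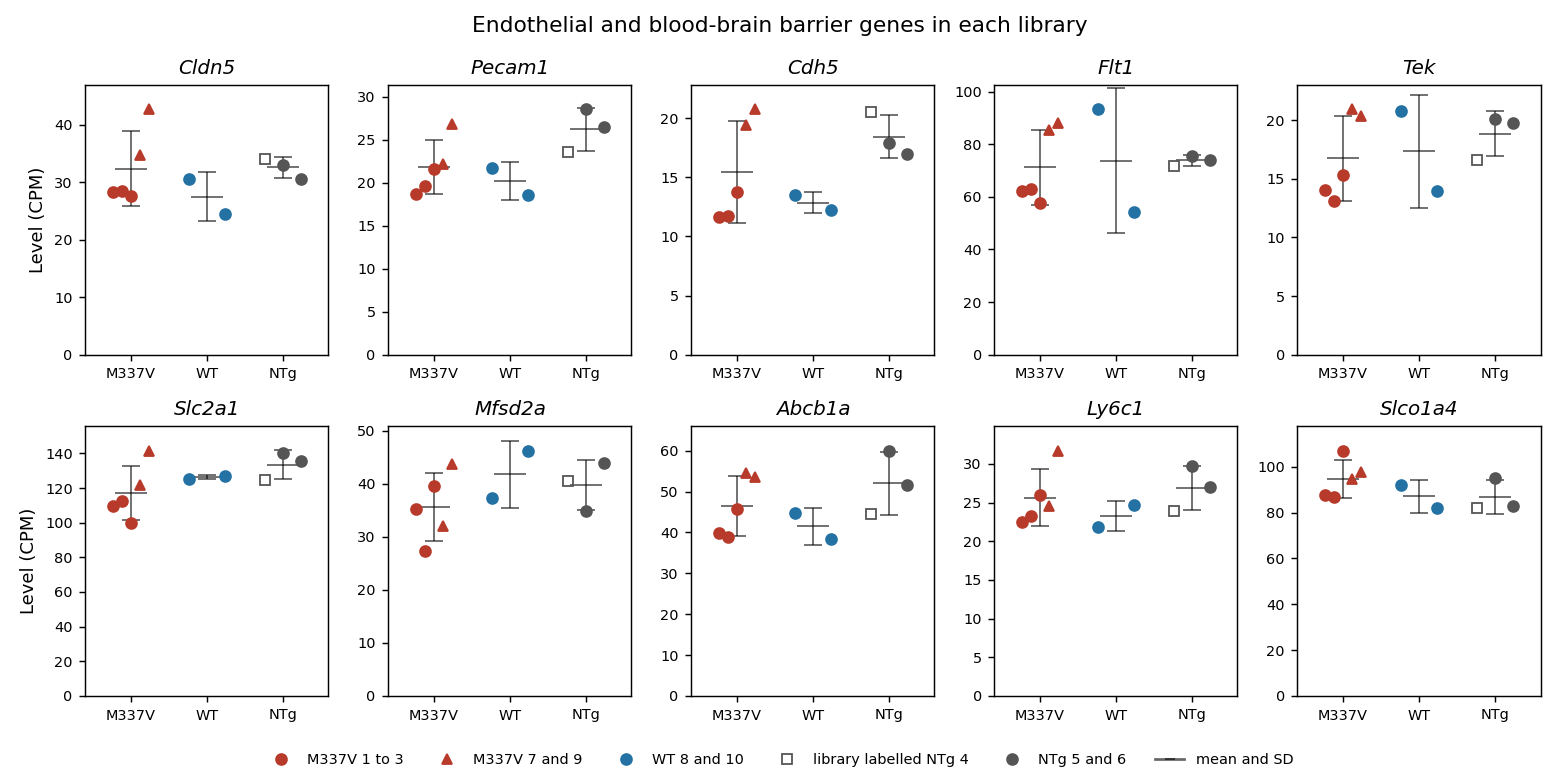
CPM of each of the 10 genes (vertical axes, starting at 0) in each library, by genotype; lines mark the mean and bars the SD (n = 5 M337V, 2 WT and 3 NTg). M337V 7 and 9 (triangles) lie above M337V 1 to 3 (red circles) for 7 genes, and the open square is the library labelled NTg 4.

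Cldn5, Cdh5 and Pecam1 encode proteins of the contacts between endothelial cells. Claudin-5, from Cldn5, is the main claudin of the tight junctions that seal brain capillaries. Cldn5 had 28.4, 28.5, 27.5, 34.8 and 42.7 CPM in M337V 1, 2, 3, 7 and 9, 30.5 and 24.5 CPM in WT 8 and 10, and 34.1, 33.0 and 30.6 CPM in NTg 4, 5 and 6. M337V 7 and 9 were the 2 highest libraries and M337V 1 to 3 were lower than every NTg library, so the M337V group lay on both sides of NTg. The means were 32.4 ± 6.45 CPM in M337V and 32.6 ± 1.81 CPM in NTg (SD, n = 5 and 3), and the log2 difference was -0.01 ± 0.14 (SE, edgeR's quasi-likelihood test, adjusted p = 0.980). Both WT libraries lay below the 3 NTg libraries, WT 8 by a small margin (30.5 CPM, against 30.6 CPM in NTg 6). For WT against NTg edgeR gave a log2 difference of -0.25 ± 0.17 (adjusted p = 0.404).

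Cdh5 encodes VE-cadherin, the cadherin of endothelial adherens junctions. Its level was 11.7, 11.7, 13.7, 19.4 and 20.7 CPM in M337V 1, 2, 3, 7 and 9, 13.5 and 12.2 CPM in WT 8 and 10, and 20.5, 17.9 and 16.9 CPM in NTg 4, 5 and 6. The libraries fell into a lower set, made of M337V 1 to 3 and both WT, and a higher set, made of M337V 7 and 9 and the 3 NTg, with no library between 13.7 and 16.9 CPM. The mean was 15.5 ± 4.34 CPM in M337V and 18.4 ± 1.85 CPM in NTg, a log2 difference of -0.25 ± 0.18 (edgeR, adjusted p = 0.426). WT, at 12.9 ± 0.899 CPM, differed from NTg by -0.52 ± 0.24 on the log2 scale, the largest of the 10 differences in that comparison, with an adjusted p of 0.192 in edgeR.

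Pecam1 encodes PECAM-1, an adhesion molecule of endothelial cells that platelets and leukocytes also carry. It had 18.7, 19.6, 21.6, 22.2 and 26.8 CPM in M337V 1, 2, 3, 7 and 9, 21.8 and 18.6 CPM in WT 8 and 10, and 23.6, 28.5 and 26.4 CPM in NTg 4, 5 and 6. Both WT libraries and 4 of the 5 M337V libraries were below all NTg libraries, while M337V 9 lay within the NTg range. Pecam1 had the smallest p of the 10 genes in both comparisons with NTg. Its log2 difference was -0.27 ± 0.11 for M337V against NTg, with a 95% interval of -0.51 to -0.02 and an adjusted p of 0.167 in edgeR. For WT against NTg it was -0.38 ± 0.14, with a 95% interval of -0.69 to -0.07 and an adjusted p of 0.126. Neither passed the threshold of 0.05. Without the library labelled NTg 4 the M337V against NTg difference of Pecam1 was -0.33 on the log2 scale (edgeR, adjusted p = 0.18).

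Flt1 and Tek encode receptor tyrosine kinases. Flt1, or VEGF receptor 1, binds vascular endothelial growth factor A with high affinity and acts largely as a decoy, and Tek, or TIE2, is the receptor of the angiopoietins. The stretches before the start sites of Flt1, Tek, Cldn5 and Slco1a4 are printed because the first 3 genes varied together over the libraries and Slco1a4 did not follow them. Of the 10 genes, 8 were found in the RefSeq promoter table (build GRCm38.p6), with 9 start sites, and Cdh5 and Pecam1 were not matched. Each line gives the 250 bases before the start site, 5′ to 3′ on the gene's strand. Flt1 lies on the minus strand (chr5:147726012-147726261), Tek on the plus strand (chr4:94739039-94739288), Cldn5 on the plus strand (chr16:18776597-18776846) and Slco1a4 on the minus strand (chr6:141856221-141856470). Capitals mark GGAAG or, on the other strand, CTTCC, a core bound by ETS factors, which are transcription factors of endothelial cells among other cells.
Flt1: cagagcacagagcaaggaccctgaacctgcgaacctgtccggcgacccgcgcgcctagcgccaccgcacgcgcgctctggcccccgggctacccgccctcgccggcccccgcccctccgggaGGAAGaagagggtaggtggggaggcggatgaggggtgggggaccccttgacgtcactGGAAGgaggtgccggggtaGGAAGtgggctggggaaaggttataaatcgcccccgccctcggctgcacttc
Tek: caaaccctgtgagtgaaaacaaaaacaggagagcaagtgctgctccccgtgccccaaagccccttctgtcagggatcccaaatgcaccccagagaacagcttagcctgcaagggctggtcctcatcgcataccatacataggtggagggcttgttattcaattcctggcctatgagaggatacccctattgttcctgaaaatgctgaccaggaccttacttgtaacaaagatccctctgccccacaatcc
Cldn5: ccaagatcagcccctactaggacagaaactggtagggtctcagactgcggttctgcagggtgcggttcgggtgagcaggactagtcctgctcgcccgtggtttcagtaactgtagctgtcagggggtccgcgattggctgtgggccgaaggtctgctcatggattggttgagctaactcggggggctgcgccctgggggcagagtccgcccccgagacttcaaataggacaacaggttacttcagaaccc
Slco1a4: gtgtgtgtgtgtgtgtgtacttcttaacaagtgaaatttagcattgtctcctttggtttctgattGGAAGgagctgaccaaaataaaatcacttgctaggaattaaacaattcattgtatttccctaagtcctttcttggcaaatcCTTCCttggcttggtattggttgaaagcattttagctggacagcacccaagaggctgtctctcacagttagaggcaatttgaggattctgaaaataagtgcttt
These letters occurred 3 times before Flt1, 2 times before Slco1a4 and not before Tek or Cldn5. They were found in 4 of the 8 genes, and in 64.1% of the 32851 stretches of the same length in the table. TATAAA, on either strand, was found before Flt1 and Ly6c1 only among the 8 genes, and in 12.4% of all stretches. The GC content was 70.4% before Flt1, 59.6% before Cldn5, 51.2% before Tek and 39.2% before Slco1a4, beside a median of 52.4% over all stretches. A match describes letters, not a bound site, and both patterns are short.

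Flt1 had 62.3, 63.2, 57.5, 85.5 and 88.0 CPM in M337V 1, 2, 3, 7 and 9, 93.3 and 54.4 CPM in WT 8 and 10, and 71.7, 75.7 and 74.2 CPM in NTg 4, 5 and 6. The 3 NTg libraries lay close together, and every M337V and WT library lay outside their range, some above it and some below. WT 8 was the highest library of all and WT 10 the lowest. The log2 difference was -0.05 ± 0.17 for M337V against NTg (edgeR, adjusted p = 0.887) and -0.00 ± 0.22 for WT against NTg (adjusted p = 0.996), where the WT mean of 73.8 ± 27.5 CPM (SD, n = 2) stands for 2 distant values. Without WT 10 that difference was 0.34 and without WT 8 it was -0.44.

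Tek had 14.0, 13.1, 15.3, 20.9 and 20.4 CPM in M337V 1, 2, 3, 7 and 9, 20.8 and 13.9 CPM in WT 8 and 10, and 16.6, 20.1 and 19.7 CPM in NTg 4, 5 and 6. Its high and low libraries were those of Flt1: M337V 7, M337V 9 and WT 8 were above all NTg libraries, and M337V 1 to 3 and WT 10 were below them. In edgeR Tek differed by -0.17 ± 0.17 on the log2 scale for M337V against NTg (adjusted p = 0.586), -0.12 ± 0.22 for WT against NTg (adjusted p = 0.764) and -0.05 ± 0.20 for M337V against WT (adjusted p = 0.976).

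The first of the transporters, Slc2a1, encodes GLUT1, the glucose carrier of barrier endothelium that astrocytes also use. Slc2a1 had 109.5, 113, 99.8, 122 and 142 CPM in M337V 1, 2, 3, 7 and 9, 125 and 127 CPM in WT 8 and 10, and 124, 140.4 and 136 CPM in NTg 4, 5 and 6. Only M337V 9 exceeded the NTg range, and 4 of the 5 M337V libraries lay below it. The log2 difference for M337V against NTg was -0.19 ± 0.09 (edgeR, adjusted p = 0.230). M337V 9 also held the most red cell RNA, and its part in the Slc2a1 value was not tested. The summed level of 5 of 5 red cell genes, none of them at 0, was 551 to 3470 CPM in M337V, 360.1 to 953 CPM in WT and 661 to 1209 CPM in NTg.

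Mfsd2a encodes the carrier that brings the omega-3 fatty acid DHA across the barrier as lysophosphatidylcholine and that holds down vesicle transport in brain endothelium. It had 35.2, 27.3, 39.6, 32.1 and 43.7 CPM in M337V 1, 2, 3, 7 and 9, 37.3 and 46.2 CPM in WT 8 and 10, and 40.6, 34.8 and 44.0 CPM in NTg 4, 5 and 6. The genotypes overlapped, and the order of the libraries was unlike that of Flt1 or Tek, with WT 10 the highest and M337V 2 the lowest. Mfsd2a had the lowest log2 difference of the 10 genes in M337V against WT, at -0.23 ± 0.16 (edgeR, adjusted p = 0.817), beside -0.16 ± 0.14 for M337V against NTg (adjusted p = 0.505).

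Abcb1a encodes a P-glycoprotein, the efflux pump that moves many drugs from the endothelial cell back into blood. Abcb1a had 39.8, 39.0, 45.7, 54.5 and 53.5 CPM in M337V 1, 2, 3, 7 and 9, 44.7 and 38.3 CPM in WT 8 and 10, and 44.6, 60.0 and 51.5 CPM in NTg 4, 5 and 6. M337V 7 and 9 and NTg 5 and 6 were the 4 highest libraries, and the groups overlapped. In edgeR Abcb1a differed by -0.16 ± 0.13 on the log2 scale for M337V against NTg (adjusted p = 0.466) and -0.33 ± 0.16 for WT against NTg (adjusted p = 0.229). Of the 100-base windows of its transcript, 7.72% were also found in the paralogs Abcb1b or Abcb4, which stood at 5.60 to 8.58 CPM and 6.33 to 9.73 CPM, so a small share of its reads could have been split among them.

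Slco1a4 encodes an organic anion transporter (OATP1A4) of brain capillaries. It had 87.6, 86.6, 107, 94.7 and 97.5 CPM in M337V 1, 2, 3, 7 and 9, 92.2 and 82.0 CPM in WT 8 and 10, and 81.8, 95.1 and 82.9 CPM in NTg 4, 5 and 6. It was the steadiest of the 10 genes, and the only one with a higher mean in M337V than in NTg: 94.7 ± 8.26 CPM in M337V and 86.6 ± 7.40 CPM in NTg, a log2 difference of 0.13 ± 0.08 (edgeR, adjusted p = 0.343). Its highest library was M337V 3, which was low for Flt1 and Slc2a1. Of its 100-base windows, 1.1% were shared with Slco1a1 or Slco1a5, which stood at 0 CPM and at 0 to 0.294 CPM.

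Ly6c1 encodes a surface protein of the Ly6 family that marks endothelial cells in the mouse nervous system. Ly6c1 had 22.5, 23.3, 26.0, 24.6 and 31.7 CPM in M337V 1, 2, 3, 7 and 9, 21.9 and 24.6 CPM in WT 8 and 10, and 23.9, 29.7 and 27.0 CPM in NTg 4, 5 and 6. M337V 9 was again the highest library, and the 3 genotypes overlapped. In edgeR Ly6c1 differed by -0.07 ± 0.11 on the log2 scale for M337V against NTg (adjusted p = 0.744) and -0.21 ± 0.14 for WT against NTg (adjusted p = 0.384). Of its 100-base windows, 15.3% were shared with Ly6c2, a monocyte gene at 0.471 to 4.99 CPM, so Ly6c1 counts carry that uncertainty. The other 7 genes shared no such window with another gene.

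M337V against NTg set the libraries labelled M337V beside those labelled nontransgenic, of which NTg 4 held human TARDBP. In that comparison 0 of the 10 genes passed the test in edgeR. Of the 15191 genes tested 4.29% did, 2.67% higher and 1.61% lower. A background of that size comes to less than 1 gene in 10, so a count of 0 does not set these genes apart. DESeq2 also called 0 of them. At an unadjusted p below 0.05 there was 1 gene, Pecam1, beside 24.5% of all genes. Differences were below 0 for 9 of the 10 genes (52.8% of all genes), with a median log2 difference of -0.16 beside -0.01 over all genes. Without the library labelled NTg 4 there were again 0 called, with 8 below 0 and a median of -0.15. The median was -0.08 without NTg 5 (7 below 0), -0.09 without M337V 2 (8 below 0) and -0.10 without M337V 1 (7 below 0). With trends over GC content and length removed it was -0.05 (7 below 0), but the median over all genes then moved to 0.04. M337V and NTg overlapped for all 10 genes, while M337V lay wholly above NTg for 9.51% of all genes and wholly below for 8.61%. The 95% intervals of the fold change ran from 0.635 (lower bound of Cdh5) to 1.25 (upper bound of Flt1), and larger changes than these lie outside the interval of every one of the 10 genes.

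WT against NTg set the unmutated transgene against the nontransgenic label, and shared the NTg libraries, NTg 4 included, with the comparison before. Here 0 of the 10 genes passed in edgeR and 0 in DESeq2, beside 5.64% of all genes in edgeR, 3.59% higher and 2.05% lower. Unadjusted p was below 0.05 for Pecam1 and Cdh5, 2 of the 10 genes, beside 25.3% of all genes. Differences were below 0 for 8 of the 10 genes (53.3% of all genes), with a median of -0.16 beside -0.02. Both WT libraries lay below all NTg libraries for 3 genes, Cldn5, Cdh5 and Pecam1, a share near the 22.1% of all genes that did so. None of the 10 lay wholly above NTg, against 19.6% of all genes. Without the library labelled NTg 4 the median was -0.20 with 9 below 0, and without both it and WT 8 the median was -0.41. The median was -0.42 without WT 8, -0.09 without WT 10 and -0.10 without NTg 5. With trends over GC content and length removed it was -0.10, but the median over all genes then moved to 0.06. The fold intervals ran from 0.488 (Cdh5) to 1.38 (Flt1).

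For M337V against WT, which sets the mutant transgene against the unmutated one, 0 of the 10 genes passed in edgeR and 0 in DESeq2, beside 0% of all genes in edgeR. At an unadjusted p below 0.05 there were 0 of the 10 genes and 6.66% of all genes. Differences were below 0 for 4 of the 10 genes (49.8% of all genes), and the median was 0.12 beside 0.00. That median was 0.02 without WT 10, 0.04 without M337V 9, 0.25 without WT 8 and 0.26 without M337V 1 to 3. M337V and WT overlapped for all 10 genes, while M337V lay wholly above WT for 4.85% of all genes and wholly below for 4.65%. The fold intervals ran from 0.673 (Mfsd2a) to 1.67 (Cdh5).

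**Figure D2:**
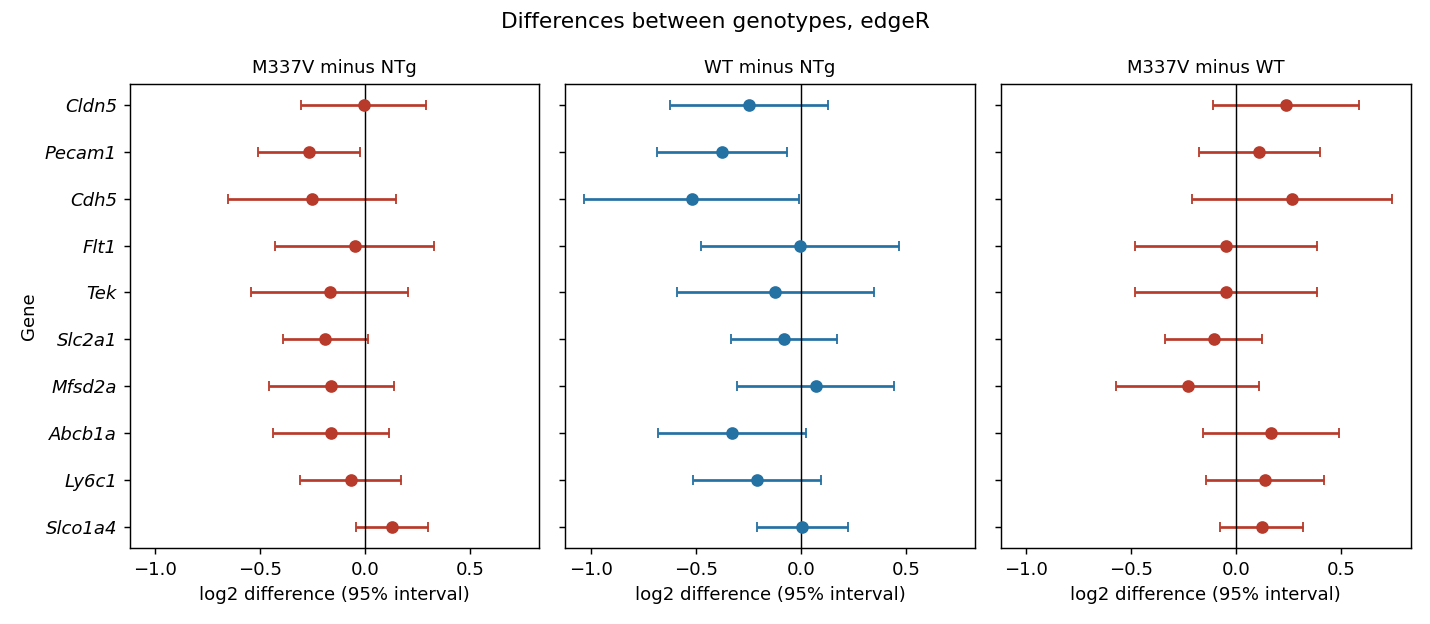
Log2 differences (horizontal axes) of the 10 genes in edgeR for M337V minus NTg, WT minus NTg and M337V minus WT, with 95% intervals. The intervals of Pecam1 for M337V minus NTg, and of Pecam1 and Cdh5 for WT minus NTg, leave out 0, and no adjusted p is under 0.05.

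The spread among the 5 M337V libraries ran along their library names. M337V 7 and 9 lay above M337V 1 to 3 without overlap for 7 of the 10 genes, all but Mfsd2a, Ly6c1 and Slco1a4, and below them for 0, beside 14.9% of all genes above and 15.8% below. The ratio of the means was 1.62 for Cdh5, 1.46 for Tek, 1.42 for Flt1 and 1.38 for Cldn5, 1.30 for Abcb1a and 1.23 for both Pecam1 and Slc2a1. The median log2 difference of the 10 genes was 0.34, beside -0.00 over all genes. Other vessel genes were above in 49 of 104 cases (47.1%, median 0.20), and genes of mural cells, the pericytes and smooth muscle around vessels, in 7 of 14 (median 0.33). Caudal Hox genes were above in 5 of 11 (median 0.88), and their summed counts were 2295, 2327 and 789 in M337V 1, 2 and 3 and 3211 and 2793 in M337V 7 and 9. Monocyte and border macrophage genes were above in 3 of 7 (median 0.54) and neutrophil genes in 2 of 8 (median 0.67). Meningeal fibroblast genes were above in 0 of 11, Schwann cell genes in 0 of 8 and red cell genes in 0 of 5, though their medians were 0.64, 0.30 and 1.22. Astrocyte genes were above in 0 of 8 (median 0.10) and skeletal muscle genes in 0 of 8 (median -1.07). The split was therefore not confined to vessel genes. The part of position along the cord, dissection or library preparation in this split was not tested. The 5 animals share genotype and age in the labels, and the split is given as a description with no test.

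Leaving out M337V 1 to 3 turned the direction of 6 of the 10 genes in M337V against NTg. With M337V 7 and 9 alone the median log2 difference was 0.10, with 3 of 10 genes below 0, and 0 genes were called in edgeR. Over all genes 3 were called then, beside 651 with all libraries. In M337V against WT the median was 0.26 with those 2 libraries.

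**Figure D3:**
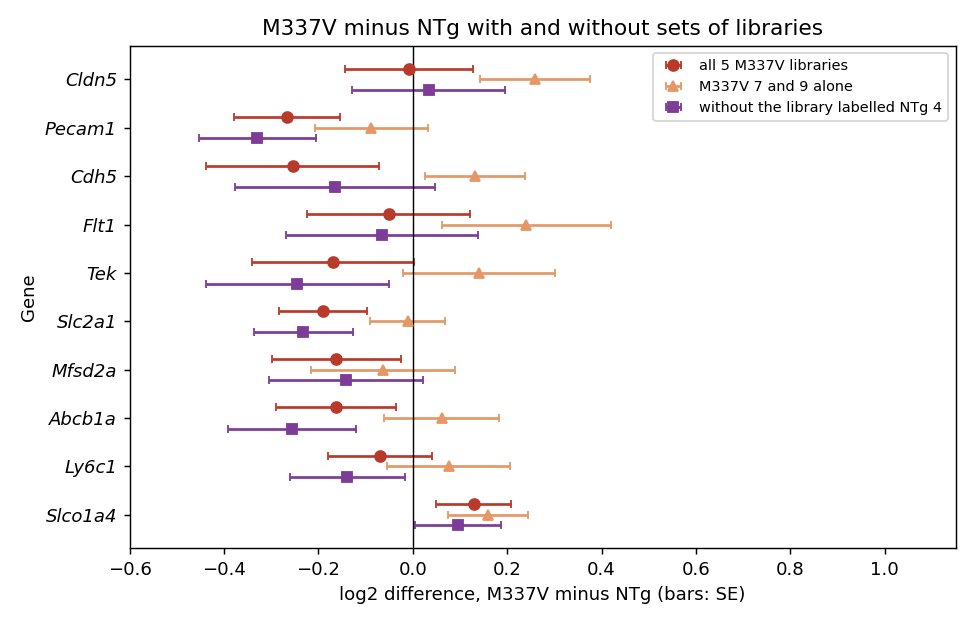
Log2 difference of M337V minus NTg (horizontal axis, bars: SE, edgeR) for each of the 10 genes with all libraries, with M337V 7 and 9 as the only M337V libraries, and without the library labelled NTg 4. Cldn5, Cdh5, Flt1, Tek, Abcb1a and Ly6c1 lie above 0 with M337V 7 and 9 alone and below 0 with all 5 libraries.

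Over the 10 libraries the genes were related to different degrees. The Pearson correlation of a gene with the mean of the other 9 (log2 CPM, n = 10) was 0.88 for Pecam1, 0.87 for Abcb1a and Tek, 0.84 for Cdh5 and 0.81 for Cldn5. It was 0.69 for Slc2a1 and Flt1 and 0.68 for Ly6c1, but 0.23 for Slco1a4 and 0.18 for Mfsd2a. These values share the libraries and their scaling, and the 10 libraries span 3 genotypes, so they are given as a description. Among genes outside the 10, those with the pattern most like the mean of the 10 were Adgrf5 (correlation 0.96), an adhesion receptor, Pnma2 (0.94), Hspa12b (0.94), Ocln (0.93), which encodes the tight junction protein occludin, and Nomo1 (0.93), each over the same 10 libraries.

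**Figure D4:**
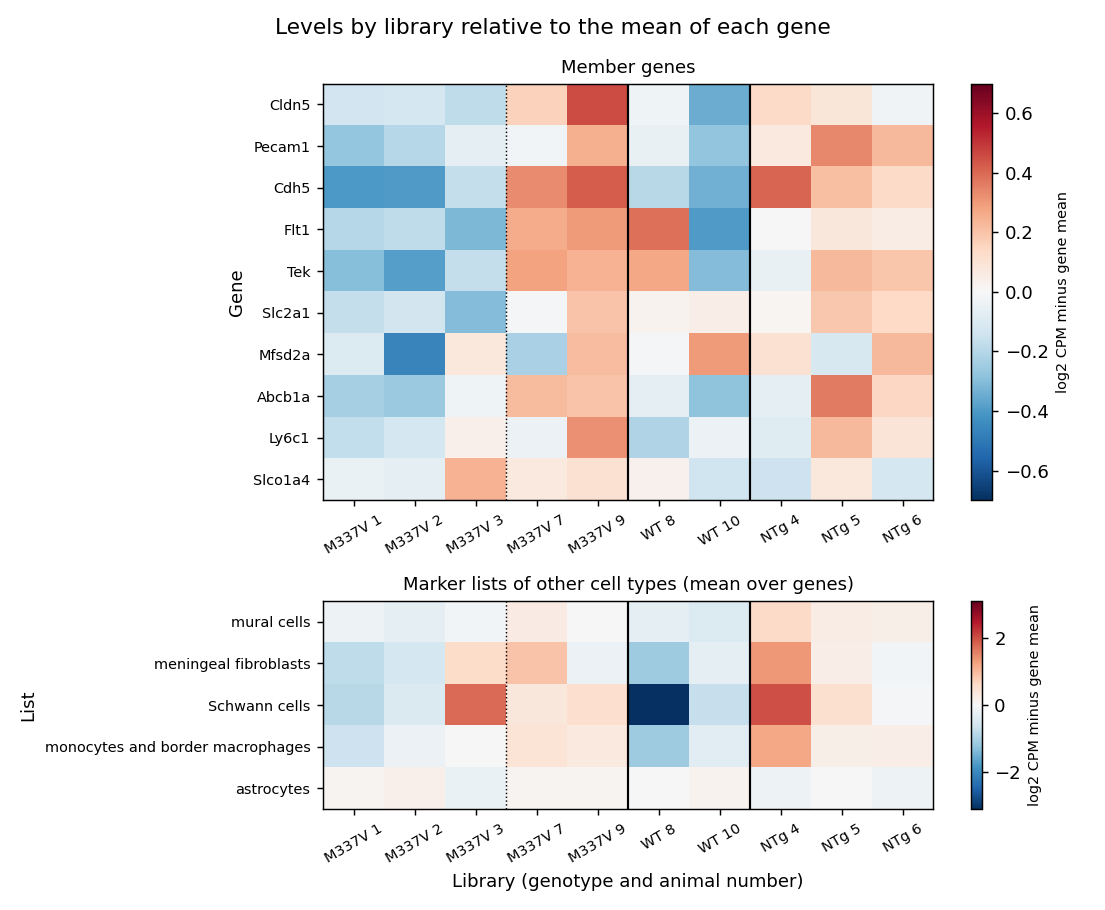
Deviation of log2 CPM from each gene's mean (colour), by library, for the 10 genes (upper panel) and as the mean over marker genes of 5 other cell types (lower panel, with a wider colour scale). The dotted line parts M337V 1 to 3 and M337V 7 and 9, and red marks levels above the gene's mean.

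Other genes of vessels were counted over 9 lists chosen with these data known, which held 105 genes, of which 104 were tested and Sele was not. In RNA from whole tissue, transcripts of these genes made by cells other than those of vessels are counted too, and their share was not tested. In M337V against NTg 1 rose and 4 fell, where 2.67% of all genes rose and 1.61% fell, and 76 lay below 0 (52.8% of all genes), with a median of -0.14 beside -0.01 over all genes. In WT against NTg 2 rose and 8 fell, where 3.59% of all genes rose and 2.05% fell, and 84 lay below 0 (53.3% of all genes), with a median of -0.26 beside -0.02. In M337V against WT edgeR called 0 and DESeq2 1, with a median of 0.09. These counts moved with the libraries. For M337V against NTg no call was left without M337V 2, NTg 4, NTg 6 or M337V 1 to 3, with 1 call without M337V 3, 2 without M337V 1 and 3 without NTg 5. For WT against NTg there were 0 calls without WT 10, 1 without NTg 6, 2 without NTg 4, 3 without WT 8, 4 without NTg 5 and 16 with DESeq2.

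Tspan12, which encodes a tetraspanin of the Norrin and Frizzled-4 complex that keeps up the barrier, rose in both transgenic groups. It had 66.1, 79.4, 73.6, 74.0 and 69.2 CPM in M337V 1, 2, 3, 7 and 9, 76.4 and 83.6 CPM in WT 8 and 10, and 56.7, 60.2 and 55.8 CPM in NTg 4, 5 and 6. All 7 libraries labelled transgenic lay above the 3 labelled NTg. The latter include NTg 4, which held human TARDBP, so this split follows the labels. The log2 difference was 0.33 ± 0.06 for M337V against NTg (edgeR, adjusted p = 0.0255) and 0.48 ± 0.08 for WT against NTg (adjusted p = 0.0123). The M337V against NTg call was lost without M337V 2, M337V 3, NTg 4 or NTg 6 (adjusted p 0.0507 to 0.151 in edgeR), and the WT against NTg call without NTg 6 or WT 10 (0.0595 and 0.0615). Without M337V 1 to 3 the M337V call was lost too (0.32, adjusted p = 0.179 in edgeR). The other 11 genes of the Wnt barrier list did not pass in any of the 3 comparisons. Most of that list lay on the other side of 0 from Tspan12. Of its 12 genes, 8 were below 0 in M337V against NTg (52.8% of all genes), with a median of -0.12. In WT against NTg 10 were below 0 (53.3% of all genes), with a median of -0.16.

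Among barrier transporters, Slc7a5 and Slc3a2, the light and heavy chains of the LAT1 amino acid carrier, fell in both transgenic groups. Slc7a5 had 63.7, 52.2, 59.6, 61.8 and 73.4 CPM in M337V 1, 2, 3, 7 and 9, 60.2 and 58.1 CPM in WT 8 and 10, and 81.6, 85.3 and 86.0 CPM in NTg 4, 5 and 6. No library labelled transgenic reached the NTg range, though NTg 4, at 81.6 CPM, held human TARDBP. The log2 difference was -0.44 ± 0.08 for M337V against NTg (edgeR, adjusted p = 0.0245) and -0.51 ± 0.11 for WT against NTg (adjusted p = 0.0252). Slc3a2 differed by -0.21 ± 0.05 (adjusted p = 0.0380 in edgeR) and -0.26 ± 0.06 (adjusted p = 0.0344) in the same comparisons, again without overlap. Both calls of M337V against NTg were lost without M337V 2, M337V 3, NTg 4, NTg 5 or NTg 6, and that of Slc3a2 also without M337V 1, with adjusted p of 0.0504 to 0.149 for Slc7a5 and 0.0580 to 0.192 for Slc3a2. For WT against NTg both were lost without NTg 4, NTg 6, WT 8 or WT 10, that of Slc7a5 also without NTg 5 (adjusted p 0.0506 to 0.107) and that of Slc3a2 also without M337V 1 (0.0504 to 0.133). With trends over GC content and length removed, no call of either gene was left: Slc7a5 was at -0.29 in M337V against NTg (edgeR, adjusted p = 0.0764) and -0.31 in WT against NTg (0.102), and Slc3a2 at -0.09 in both (0.313 and 0.400). Without M337V 1 to 3 both M337V calls were lost (adjusted p = 0.217 and 0.319). Slc16a1, the monocarboxylate carrier MCT1, which oligodendrocytes also use, rose in WT against NTg by 0.35 ± 0.07 (edgeR, adjusted p = 0.0184), a call lost without NTg 6 (0.0760) or WT 10 (0.0894). Its difference was 0.08 ± 0.05 in M337V against NTg (adjusted p = 0.384) and -0.27 ± 0.06 in M337V against WT (adjusted p = 0.496), and neither passed.

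Klf2, a transcription factor that endothelial cells raise under flow, fell in M337V to 5.65 ± 2.10 CPM (SD, n = 5), against 11.2 ± 1.04 CPM in NTg (SD, n = 3), a log2 difference of -0.99 ± 0.24 (edgeR, adjusted p = 0.0438). Its 5 M337V libraries held 3.63, 4.02, 4.81, 8.11 and 7.69 CPM in the order 1, 2, 3, 7 and 9. All were under the lowest NTg library, the one labelled NTg 4, at 10.1 CPM. WT 8 and WT 10, at 5.02 and 6.72 CPM, were under it too, though Klf2 did not pass in WT against NTg. Here too M337V 7 and 9 were above M337V 1 to 3. Klf2 was the 1 call among 13 endothelial transcription factors in M337V against NTg, where 1.61% of all genes fell. Of those 13 genes 7 lay below 0, with a median of -0.02. The call was lost without M337V 1, M337V 2, M337V 3, NTg 4, NTg 5 or NTg 6 (adjusted p 0.0639 to 0.192). It was lost as well without M337V 1 to 3 (-0.49, edgeR adjusted p = 0.260) and with trends over GC content and length removed (-0.85, adjusted p = 0.0772). Sox7, a transcription factor of vessel formation, fell in WT to 0.963 ± 0.191 CPM (SD, n = 2), against 2.02 ± 0.0641 CPM in NTg (SD, n = 3, edgeR adjusted p = 0.0299), a call lost without NTg 4, NTg 5, NTg 6, WT 8 or WT 10 (0.0529 to 0.152). The M337V libraries, at 1.48 to 1.88 CPM, also lay below the NTg libraries (1.97 to 2.10 CPM), but Sox7 did not pass in M337V against NTg. Sox7 was the 1 call of the 13 in WT against NTg, where 2.05% of all genes fell. There 12 of the 13 lay below 0, with a median of -0.37. Ackr1, a chemokine-binding receptor of venules, had a log2 difference of -0.39 ± 0.09 in M337V against NTg (adjusted p = 0.0397) and -0.48 ± 0.12 in WT against NTg (adjusted p = 0.0385). Its M337V call held only without M337V 3, WT 8 or WT 10 among the leave-one-out fits, and its WT call only without M337V 2 or M337V 3, with adjusted p up to 0.189 and 0.184. With trends over GC content and length removed both were lost (edgeR adjusted p = 0.0917 and 0.116), and without M337V 1 to 3 the M337V call was (0.179).

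Of 17 endothelial vesicle and surface genes, 4 fell in WT against NTg, where 2.05% of all genes fell, and 0 passed in M337V against NTg or in M337V against WT. Vwf, the clotting factor carrier stored by endothelial cells and platelets, had a WT mean of 12.9 ± 1.26 CPM (SD, n = 2) and an NTg mean of 38.7 ± 13.3 CPM (SD, n = 3), a log2 difference of -1.58 ± 0.42 (edgeR, adjusted p = 0.0478). Clec14a, a lectin of vessel sprouting, differed in edgeR by -1.06 ± 0.23 (adjusted p = 0.0274) and Egfl7, a matrix protein that endothelial cells secrete, by -0.47 ± 0.11 (adjusted p = 0.0356). Nos3, which encodes endothelial nitric oxide synthase, was the last of these, at -0.53 ± 0.14 (adjusted p = 0.0492), and is named here after its values were seen. Its call was lost without any of NTg 4 to 6, WT 8, WT 10 or M337V 2, 3 or 7 (edgeR adjusted p 0.0551 to 0.216), and with no filter on low counts (0.0561). With trends over GC content and length removed the calls of Egfl7 (-0.27, adjusted p = 0.175 in edgeR), Nos3 (-0.33, 0.164) and Vwf (-1.40, 0.0565) were lost. In the fit of WT and NTg alone the calls of Clec14a (edgeR, adjusted p = 0.0567), Egfl7 (0.0982) and Nos3 (0.0823) were lost. That fit also lost the WT against NTg calls of Sox7 (0.0860), Slc3a2 (0.0981) and Ackr1 (0.0506). Vwf, Clec14a and Egfl7 lost their calls without NTg 4, WT 8 or WT 10, Vwf and Egfl7 also without NTg 5, and Vwf and Clec14a without NTg 6, with the highest adjusted p without WT 10 (0.184 for Vwf, 0.138 for Clec14a and 0.135 for Egfl7). The calls of Vwf and Egfl7 were also lost without some M337V libraries, M337V 3 or 9 for Vwf and M337V 2, 7 or 9 for Egfl7, at adjusted p just over the threshold (from 0.0532 and 0.0504).

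The remaining vessel lists held 0 calls in all 3 comparisons in edgeR: 14 junction and adhesion genes, 7 growth factor ligands, 9 growth factor receptors and co-receptors, and 10 arterial and venous genes. All 9 receptors and co-receptors lay below 0 in M337V against NTg and 8 did in WT against NTg, with medians of -0.24 and -0.50. The smallest p among them was that of Robo4, a guidance receptor of endothelium, at -0.74 ± 0.23 in WT against NTg (adjusted p = 0.0783), and then Tie1, the partner receptor of Tek, at -0.50 ± 0.16 (adjusted p = 0.0806). Examples from the others were Jam2, a junction adhesion molecule, at 0.16 ± 0.06 in M337V against NTg (adjusted p = 0.146), and Esam, an adhesion molecule of endothelium, at -0.38 ± 0.16 in WT against NTg (adjusted p = 0.176). Angpt1, a ligand of Tek, stood at 0.38 ± 0.14 in M337V against NTg (adjusted p = 0.115) and Angpt2, its context-dependent antagonist, at -1.24 ± 0.56 in WT against NTg (adjusted p = 0.190). Gja4, a gap junction gene of arterial endothelium, stood at -1.03 ± 0.28 in WT against NTg (adjusted p = 0.0529).

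Markers of cell types beside endothelium varied with the groups too, and their part in the vessel results was not tested. Over all genes, 1.61% fell in M337V against NTg and 2.05% in WT against NTg, and the calls below stand beside those shares. Mural cell markers, 14 of 14 tested and none at 0, summed to 284 to 365 CPM in M337V, 247 to 272 CPM in WT and 316 to 429 CPM in NTg. Of them Acta2, the smooth muscle actin, fell in M337V by 0.86 (SE 0.19, edgeR, adjusted p = 0.0328) and in WT by 1.60 (SE 0.26, adjusted p = 0.0117) on the log2 scale, and Myh11, smooth muscle myosin, fell in WT by 1.12 (SE 0.29, adjusted p = 0.0452). Meningeal fibroblast markers, 11 of 11, summed to 387 to 1028 CPM in M337V, 384 to 545 CPM in WT and 570.4 to 1182 CPM in NTg, and 0 were called. Schwann cell markers, 8 of 8, summed to 306 to 1707 CPM in M337V, 198 to 392 CPM in WT and 549.7 to 2348 CPM in NTg, with 0 called. Neutrophil markers, 8 of 8, summed to 50.8 to 136 CPM in M337V, 27.5 to 95.7 CPM in WT and 152 to 506 CPM in NTg, and 4 of them, among them Ngp, Camp and S100a8, fell in each comparison with NTg, the other being S100a9, named after its values were seen. Monocyte and border macrophage markers, 7 of 7, summed to 10.6 to 24.1 CPM in M337V, 7.95 to 13.2 CPM in WT and 19.5 to 39.6 CPM in NTg, with 2 lower in WT, Ly6c2 and F13a1. In the fit of WT and NTg alone the WT calls of the 4 neutrophil genes, Ly6c2 and F13a1 were lost (edgeR, adjusted p 0.0789 to 0.105). Skeletal muscle markers, 8 of 8, summed to 24.0 to 152 CPM in M337V, 16.3 to 521 CPM in WT and 134 to 947 CPM in NTg, and Myh2 and Mb fell in M337V against NTg. With trends over GC content and length removed the calls of Myh2 and Mb were lost (edgeR, adjusted p = 0.0519 and 0.0586). That of Mb was also lost with DESeq2 (adjusted p = 0.0557). Astrocyte markers, 8 of 8, summed to 7289 to 9511 CPM in M337V, 8797 to 9311 CPM in WT and 7347 to 7899.8 CPM in NTg, with 0 called. The library labelled NTg 4 held the highest summed level of the mural, meningeal, Schwann, neutrophil and monocyte lists. Of these calls each was lost in at least 1 leave-one-out fit, that of Acta2 in WT against NTg only without WT 10 (adjusted p = 0.0518), and the others without 4 to 8 libraries. Without M337V 1 to 3 the log2 difference of Acta2 in M337V against NTg was -0.52 (edgeR, adjusted p = 0.282), and the neutrophil and skeletal muscle calls were lost as well (adjusted p 0.301 to 0.369). Without both NTg 4 and WT 8 the neutrophil differences in WT against NTg lay between -1.22 (Camp) and -0.93 (S100a9), and those of Ly6c2 and F13a1 were -0.97 and -0.71, none of them called (edgeR, adjusted p 0.215 to 0.275).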

How the data were processed

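The authors deposited 1 table of raw read counts, a whole number for each gene in each library. Per the labels, Trizol and a miRNeasy kit gave the RNA, which was made into stranded TruSeq libraries sequenced as read pairs. The submitters' processing notes name STAR 2.4.2a and featureCounts among other tools, without roles, and the genome build and annotation of the counts are not stated in any source used here. All 10 count columns matched a library name, and 0 columns were left unused.

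Gene names, exon lengths and coordinates came from a GENCODE annotation of the GRCm38 build by Ensembl identifier, which named 21775 of 22024 identifiers. Counts were analysed with edgeR 4.0.16 in R 4.3.3: filterByExpr by group (minimum count 10, minimum total 15) left 15191 genes and dropped 6833, TMM set the library sizes, and the quasi-likelihood test was fitted to all 10 libraries with a mean per genotype. Groups were taken from the genotype in the titles. The threshold was a Benjamini-Hochberg adjusted p below 0.05 over all genes tested, and errors are the standard error of the log2 difference. Alternatives were RLE factors, no filter, DESeq2 1.42.0, a fit of the compared groups alone, each library left out in turn, leaving out NTg 4 with WT 8 or M337V 1 to 3, and removing trends over GC content and length. No pair of libraries agreed within sampling noise (lowest chi-square per degree of freedom 4.87).

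The members and the other lists were chosen with earlier results of these data known. All 10 members are named. From each other list the called genes were named, up to 3 per comparison by smallest p, and where none was called up to 2 by smallest p. The 5 genes most alike were those with the highest Pearson correlation of log2 CPM (prior count 2) with the mean of the centred member values. Each library is 1 animal, p-values cover the spread between these libraries, and depth limits small counts, such as Sox7 at about 2 CPM.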

Additional observations from a re-analysis of the deposited data

Results flagged for a closer look

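Of 29 genes looked at for a lone library among the 5 of the M337V group, Clec14a stood out. M337V 7 held 7.96 CPM of it, and the nearest other M337V library, M337V 3, held 5.75 CPM. The gap was large for the range of the group by Dixon's criterion at the 95% level, which chance passes in about 1 of 20 groups, so 1 of 29 is within what chance gives. NTg 4, 5 and 6 held 8.91, 6.60 and 6.33 CPM. None of the 10 endothelial and barrier genes was flagged in this way.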

How the results depend on the processing

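The count of called members was 0 in all 3 comparisons under every alternative run. The count over all genes for M337V against NTg was 1500 with DESeq2, 1057 in a fit of the 2 groups alone and 3 without M337V 1 to 3, and ran from 2 (without NTg 6) to 1016 (without WT 10) with 1 library left out, beside 651. For WT against NTg, beside 857, it was 1724 with DESeq2, 258 in the 2-group fit and 142 without both NTg 4 and WT 8, and ran from 44 (without NTg 6) to 1086 (without M337V 3). For M337V against WT, beside 0, it was 29 with DESeq2, 1 with no filter and 4 without both NTg 4 and WT 8, and ran from 0 to 6 (without WT 10). The other vessel genes called were 2 for M337V against NTg and 6 for WT against NTg with GC and length trends removed, 2 and 1 without both NTg 4 and WT 8, and 5 for WT against NTg in the 2-group fit. Of the members' log2 differences, 153 of 170 kept direction and side of the threshold for M337V against NTg, 140 of 160 for WT against NTg and 160 of 170 for M337V against WT, and the others changed sign, none past the threshold. Without M337V 1 to 3, M337V against NTg became 0.061 for Abcb1a, 0.13 for Cdh5, 0.26 for Cldn5, 0.24 for Flt1, 0.076 for Ly6c1 and 0.14 for Tek, and M337V against WT became 0.23 for Flt1, 0.057 for Slc2a1 and 0.25 for Tek. With GC and length trends removed, M337V against NTg became 0.13 for Cldn5 and 0.024 for Flt1, and WT against NTg 0.065 for Flt1, 0.10 for Slc2a1 and -0.080 for Slco1a4. Without both NTg 4 and WT 8, Cldn5 became 0.034 in M337V against NTg, Slco1a4 -0.11 in WT against NTg, and Flt1 0.39 and Tek 0.27 in M337V against WT. Flt1 in WT against NTg was 0.0077 with RLE factors, 0.0097 with DESeq2 and 0.012 in the 2-group fit. With 1 library left out, sign changes fell in these ranges: M337V against NTg, Cldn5 -0.12 to 0.054, Flt1 -0.13 to 0.026 and Ly6c1 -0.15 to 0.0088; M337V against WT, Flt1 -0.39 to 0.39 and Tek -0.31 to 0.27; WT against NTg, Flt1 -0.44 to 0.34, Mfsd2a -0.093 to 0.22, Slco1a4 -0.078 to 0.090 and Tek -0.44 to 0.14. The cause was not tested. No paired analysis was possible because the groups share no replicate number.

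With 2 WT libraries that lie far apart for Flt1 and Tek, small differences could not be detected, and the library labelled NTg 4 and the numbering of M337V 1 to 3 remain as limits on the genotype comparisons. Cord level is a limit as well. Caudal Hox counts were 240 in WT 8 and 789 in M337V 3, against 2295 to 4584 in the other libraries. Whether WT 8 and M337V 3 matched the others in level was not tested. Counts describe whole tissue stated to be lumbar, and a p over the threshold does not show that groups act alike.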
